A study of Mus musculus with 8 samples.

Results

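*Pdgfa*, *Pdgfc*, *Pdgfra*, *Pdgfrb*, *Axl*, *Egfr*, *Erbb2*, *Erbb3*, *Met* and *Kit* are the 10 genes described here, chosen by their symbols out of the 18990 genes of the deposited table. They encode 8 receptor tyrosine kinases and 2 ligands of the platelet-derived growth factor (PDGF) receptors, and they set receptors known from fibroblasts beside receptors known from epithelia. Receptor tyrosine kinases sit in the cell membrane, pair up when an extracellular ligand binds, and phosphorylate their own tails, which recruits adaptors that switch on the RAS-MAPK and PI3K pathways. PDGF receptors and AXL are typical of mesenchymal cells, ERBB3 is typical of epithelia, EGFR, ERBB2 and MET are used by both, and KIT is known from germ cells, melanocytes and blood progenitors. Fibroblasts that are reprogrammed towards pluripotency lose mesenchymal features and gain epithelial ones at an early stage, so these receptors can be followed across that passage.

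RNA-seq of ribosome-depleted total RNA was measured in mouse embryonic fibroblasts (MEFs) that were being reprogrammed after siRNA transfection against *Ncor1*, a nuclear corepressor, or *Oct4* (*Pou5f1*), a pluripotency factor that is also part of the reprogramming cassette. The 4 groups are *siNcor1* at day 3, *siOct4* at day 3, *siNcor1* at day 6 and *siOct4* at day 6, with 2 replicates in each. Whether the replicates came from separate embryos is not given in the sources used here, so p-values measure the spread between these libraries, which may in part be technical. All 4 groups share the rest of the treatment. Primary MEFs of the wild-type strain C57/BL6 carried the tet-STEMCCA lentivirus, which encodes OCT4, SOX2, KLF4 and MYC, together with the rtTA transactivator, and received a pool of siRNAs at 40 nM before doxycycline switched the cassette on. Their medium held LIF, ascorbic acid, a GSK3 inhibitor and an inhibitor of ALK5, the type I receptor of TGF-beta, and it was shared by both siRNA groups. The infected culture is a mixture of cells and not a clone. Libraries with a non-targeting siRNA were not analysed here, and values are set against the other siRNA or the other day.

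Values are log2-cpm, where CPM stands for the reads of a gene scaled by an effective size of its library. This effective size was below the total of reads on genes in some libraries and above it in others. Whole reads could be recovered from all values, which gave 7735742 to 16445192 reads on genes per library. The 10 genes passed the filter on low values, an average of at least 1 CPM over the 8 libraries, as did 13866 genes in all. *Ncor1* had 7.14 ± 0.085 log2-cpm (SD, n = 2) with *siNcor1* and 7.88 ± 0.081 with *siOct4* at day 3, and 7.27 ± 0.017 and 7.23 ± 0.14 at day 6. *Pou5f1* was at 7.65 ± 0.040 and 7.58 ± 0.063 at day 3, and at 7.44 ± 0.16 and 9.21 ± 0.34 at day 6. The cassette also makes *Oct4* RNA, and libraries from before day 3 were not analysed here, so these values do not show whether *Pou5f1* was lower earlier. At day 3 the means of *Pou5f1* were within 0.1 of each other, at day 6 it was higher in libraries labelled *siOct4*, and at day 6 *Ncor1* was not lower in *siNcor1*. Both names are therefore used as labels, and directions are given between libraries with these labels. The non-coding RNA *Gm26917* took 15.5% to 16.6% of reads at day 3 and 20.3% to 29.1% at day 6, which can move the CPM of all other genes. Differences were tested with limma, 2-sided, over all 13866 genes, with all 4 groups in 1 fit and Benjamini-Hochberg adjustment, and a gene is said to have risen or fallen only where the adjusted p was under 0.05. The comparisons share libraries with each other and are therefore not independent.

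The stretch before the RefSeq start was read for genes whose siRNA difference changed between the days, except for *Pdgfrb*, which was not searched. For 4 of them it holds no base of an annotated exon. These 4 are shown so that the regulatory sequence of genes that moved can be read beside their values. Each is 250 bases long, written 5′ to 3′ on the strand of its gene, from the RefSeq annotation of GRCm38.p6. Capitals mark matches on either strand to GGAATG, a core bound by TEAD factors, or GGGCGG, a core bound by SP and KLF factors. Other sequences that these factors bind were not searched. The stretches lie at chr3:81036166-81036415 (plus strand, *Pdgfc*), chr5:75152001-75152250 (plus strand, *Pdgfra*), chr7:25788734-25788983 (minus strand, *Axl*) and chr11:16751953-16752202 (plus strand, *Egfr*).
Pdgfc: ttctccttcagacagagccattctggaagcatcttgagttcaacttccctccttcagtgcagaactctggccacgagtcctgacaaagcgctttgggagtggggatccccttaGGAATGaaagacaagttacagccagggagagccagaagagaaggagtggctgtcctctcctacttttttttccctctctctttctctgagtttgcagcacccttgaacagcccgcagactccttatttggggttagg
Pdgfra: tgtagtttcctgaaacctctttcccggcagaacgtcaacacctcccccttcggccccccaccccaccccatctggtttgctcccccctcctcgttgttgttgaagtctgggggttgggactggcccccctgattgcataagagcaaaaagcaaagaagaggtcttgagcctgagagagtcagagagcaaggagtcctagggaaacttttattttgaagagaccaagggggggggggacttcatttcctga
Axl: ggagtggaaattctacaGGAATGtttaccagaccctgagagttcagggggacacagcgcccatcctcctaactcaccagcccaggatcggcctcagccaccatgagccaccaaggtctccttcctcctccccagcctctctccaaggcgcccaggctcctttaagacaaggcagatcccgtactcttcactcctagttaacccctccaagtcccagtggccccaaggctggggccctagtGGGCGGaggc
Egfr: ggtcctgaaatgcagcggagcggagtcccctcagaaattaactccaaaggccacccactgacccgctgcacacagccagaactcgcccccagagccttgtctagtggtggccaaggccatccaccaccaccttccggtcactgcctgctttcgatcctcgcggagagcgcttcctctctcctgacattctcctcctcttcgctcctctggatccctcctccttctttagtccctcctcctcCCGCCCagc
The stretch of *Pdgfc* holds 1 TEAD core, that of *Axl* holds 1 TEAD core and 1 SP/KLF core, that of *Egfr* holds 1 SP/KLF core, and that of *Pdgfra* holds neither. Among 32851 such stretches in the RefSeq table, 12.6% hold a TEAD core and 32.7% an SP/KLF core. The AP-1 motif TGANTCA, the TATA box TATAAA and the E-box CACGTG bound by MYC are in 6.75%, 12.4% and 6.02% of all stretches, and in none of the 4 shown. Stretches were read for 8 of the 10 genes, as *Pdgfrb* was not searched and none was found for *Erbb3*. The one before *Met* holds 1 AP-1 motif, 3 SP/KLF cores and 1 E-box, and *Erbb2* has 1 TEAD core. Both starts listed for *Kit* have 1 SP/KLF core, and the starts of *Pdgfa* have 1 and 2. GC content is 50.8% for *Pdgfc*, 54.4% for *Pdgfra*, 60.0% for *Axl* and 60.8% for *Egfr*, against a median of 52.4% over all stretches. A match describes letters and does not show that a factor binds.

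Between genes, levels can be compared only per length, as CPM per kilobase of annotated exon. On this scale *Axl*, the receptor of the vitamin K-dependent ligand GAS6, stood above the other 9 genes in all 4 groups, at 83.3 ± 9.12 (SD, n = 2) in *siNcor1* and 107 ± 5.25 in libraries labelled *siOct4* at day 3. At day 6 it was at 51.9 ± 0.871 and 29.9 ± 0.0068. Among 49 receptor kinases in the table, *Axl* ranked 1 in both groups at day 3 and 2 in both groups at day 6. *Pdgfrb* followed, except in libraries labelled *siOct4* at day 6, where *Pdgfa* stood above it at 21.7 ± 2.74. *Pdgfrb* was at 22.6 ± 0.063 and 29.3 ± 3.13 at day 3, and 22.9 ± 0.872 and 11.9 ± 0.564 at day 6.

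The middle of the order was held by *Pdgfa*, *Met*, *Egfr*, *Pdgfra* and *Erbb2*, which lay between 7.16 and 17.0 CPM per kilobase in both groups at day 3. Most neighbours did not overlap between their libraries, but *Pdgfra* and *Erbb2* did in *siNcor1* at day 3, *Met* and *Egfr* did in both groups at day 6, and *Erbb3* and *Pdgfc* did in libraries labelled *siOct4* at day 6. *Pdgfra* moved between the days from place 6 to place 4 of the 10 genes in *siNcor1* and from place 7 to place 4 in libraries labelled *siOct4*, and *Pdgfc* from place 8 to place 9 in libraries labelled *siOct4*. *Erbb3* and *Kit* were lowest at day 3, at 0.542 ± 0.0036 and 0.284 ± 0.087 in *siNcor1*. The 8 receptors together made up 33.0% to 33.3% of the summed level of the 49 receptor kinases in *siNcor1* at day 3, 35.2% to 35.6% in libraries labelled *siOct4* at day 3, 26.9% to 27.7% in *siNcor1* at day 6 and 22.3% to 24.7% in libraries labelled *siOct4* at day 6.

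**Figure D1:**
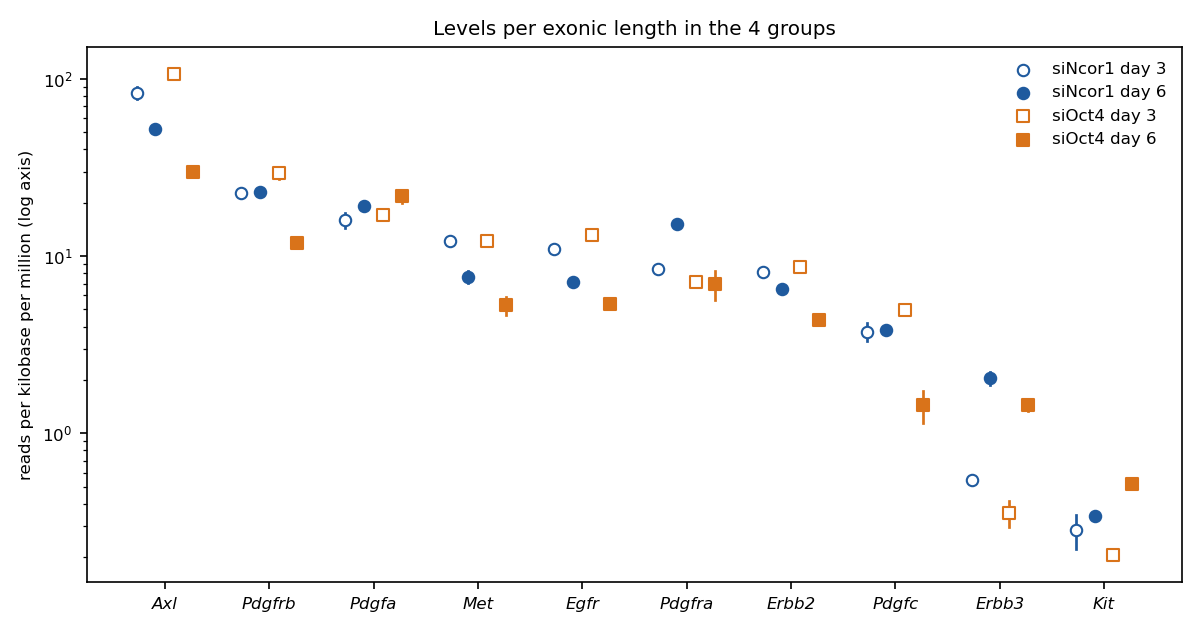
Levels per exonic length of the 10 genes, as CPM per kilobase of exon on a log axis. Symbols are means of 2 libraries and vertical lines join the lower and the higher library, in blue circles for *siNcor1* and orange squares for *siOct4*, open at day 3 and filled at day 6. *Axl* is above the other genes in all 4 groups, from 29.9 to 107, and *Kit* is the lowest.

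*Pdgfa*, on the minus strand of chromosome 5 from 138976014 to 138997370 of mm10, encodes PDGF-A, a ligand of PDGF receptor alpha. Its values were 5.77 and 5.49 log2-cpm in *siNcor1* and 5.82 and 5.64 in libraries labelled *siOct4* at day 3. At day 6 they were 5.97 and 5.84 in *siNcor1* and 6.21 and 5.95 in libraries labelled *siOct4*. The libraries of the siRNA groups overlapped on both days, while every day 6 library was above the day 3 libraries of its own siRNA. From day 3 to day 6 the difference in *siNcor1* passed with quantile normalization (adjusted p = 0.0433, with 0.0433 to 0.637 over 19 alternatives). The difference between the siRNA groups was 0.10 (log2, SE 0.14, limma adjusted p = 0.911) at day 3 and 0.18 (SE 0.14, adjusted p = 0.369) at day 6. From day 3 to day 6 it was 0.27 (SE 0.14, adjusted p = 0.164) in *siNcor1* and 0.35 (SE 0.14, adjusted p = 0.0578) in libraries labelled *siOct4*. The latter passed the threshold under 5 of 19 alternatives, among them all 3 other scalings, the replicate block (adjusted p = 0.0225) and the fit without the second library labelled *siOct4* of day 6 (adjusted p = 0.0179), within a range of 0.00733 to 0.278. *Pdgfa* shares 813 exonic bases with *6330403L08Rik* on the other strand, which had 75 to 196 reads against 394 to 881 for *Pdgfa*. Whether the reads were counted by strand is not given in the sources used here, so reads of this pair cannot be told apart.

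*Pdgfc*, on the plus strand of chromosome 3 from 81036416 to 81214040, encodes PDGF-C, which is secreted in a latent form and binds PDGF receptor alpha once cleaved. It fell most of the 10 genes between the siRNA groups at day 6. Its values were 4.42 and 4.09 log2-cpm in *siNcor1* and 4.75 and 4.59 in libraries labelled *siOct4* at day 3, then 4.23 and 4.35 in *siNcor1* and 2.57 and 3.16 in libraries labelled *siOct4* at day 6. Both libraries labelled *siOct4* of day 6 were below all 6 others. There it was at 37.3% of the *siNcor1* level (log2 fold change −1.42, SE 0.20, limma adjusted p = 7.28e-04), against a difference of 0.41 (SE 0.20, adjusted p = 0.522) at day 3. In libraries labelled *siOct4* it fell to 28.7% of its day 3 level (−1.80, SE 0.20, adjusted p = 2.63e-05), and in *siNcor1* the difference was 0.039 (SE 0.20, adjusted p = 0.900), with overlapping libraries. The change of the siRNA difference from day 3 to day 6 was −1.84 (SE 0.29, adjusted p = 0.00178). *Gm16000* shares 147 exonic bases with it on the other strand.

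The ratio of *Pdgfa* to *Pdgfc* per length was 4.19 and 4.32 in *siNcor1* and 3.44 and 3.40 in libraries labelled *siOct4* at day 3. At day 6 it was 5.46 and 4.59 in *siNcor1* and 20.7 and 11.4 in libraries labelled *siOct4*. Of the other ligands of the family, *Pdgfd*, which binds PDGF receptor beta, was lower in libraries labelled *siOct4* than in *siNcor1* at day 6 by −0.90 (SE 0.24, limma adjusted p = 0.0157), a call lost without the second *siNcor1* library of day 6 (0.113) or the first library labelled *siOct4* of day 6 (0.0688), and with only the groups compared (0.0565). *Pdgfb*, the ligand of all PDGF receptor dimers, had 4 to 26 reads per library at day 3. It rose from day 3 to day 6 by 2.69 (SE 0.36, adjusted p = 9.38e-05) in libraries labelled *siOct4* and by 1.11 (SE 0.36, adjusted p = 0.0335) in *siNcor1*, where the call was lost without either day 3 library or the first day 6 library (0.0708 to 0.267) and with quantile normalization (0.0760).

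*Pdgfra*, on the plus strand of chromosome 5 from 75152292 to 75198215, encodes PDGF receptor alpha, a marker of embryonic mesenchyme. Its values were 6.38 and 6.45 log2-cpm in *siNcor1* and 6.16 and 6.18 in libraries labelled *siOct4* at day 3, then 7.23 and 7.26 in *siNcor1* and 5.83 and 6.38 in libraries labelled *siOct4* at day 6. Both *siNcor1* libraries of day 6 were above all others, and the libraries labelled *siOct4* of day 6 lay on both sides of those of day 3. In *siNcor1* it rose 1.77-fold (log2 fold change 0.83, SE 0.16, limma adjusted p = 0.00215). In libraries labelled *siOct4* the difference between the days was −0.062 (SE 0.16, adjusted p = 0.759), and its sign turned with the libraries centred on their medians (0.0092), with quantile normalization (0.19), with totals without *Gm26917* (0.074) and without the first library labelled *siOct4* of day 6 (0.21). Without the second it was −0.34 and passed the threshold (adjusted p = 0.0326, with 0.0326 to 0.965 over 19 alternatives). At day 6 *siOct4* was at 45.5% of *siNcor1* (−1.14, SE 0.16, adjusted p = 6.18e-04), which passed under all 19 alternatives run. The difference at day 3 was −0.25 (SE 0.16, adjusted p = 0.688). The change of the difference between the days, −0.89 (SE 0.22, adjusted p = 0.0168), was lost without either *siNcor1* library of day 3 (0.0571 and 0.0655), the second library labelled *siOct4* of day 3 (0.0605) or the second *siNcor1* library of day 6 (0.0675), and without a trend of the variance (0.0646), within a range of 3.66e-04 to 0.0675. *Gm42802* and *Gm42803* share 456 and 166 exonic bases with *Pdgfra* on the other strand.

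*Pdgfrb*, on the plus strand of chromosome 18 from 61045150 to 61085061, encodes PDGF receptor beta, known from fibroblasts and pericytes. Its values were 6.96 and 6.95 log2-cpm in *siNcor1* and 7.21 and 7.43 in libraries labelled *siOct4* at day 3, then 6.93 and 7.01 in *siNcor1* and 5.98 and 6.07 in libraries labelled *siOct4* at day 6. All 4 *siNcor1* libraries lay within 0.1 of each other, the libraries labelled *siOct4* of day 3 above them and those of day 6 below them. The siRNA difference was 0.37 (SE 0.12, limma adjusted p = 0.210) at day 3 and −0.95 (SE 0.12, adjusted p = 4.40e-04) at day 6, and its change of −1.32 (SE 0.17, adjusted p = 7.55e-04) passed under all 18 alternatives. It fell in libraries labelled *siOct4* to 40.6% of its day 3 level (−1.30, SE 0.12, adjusted p = 5.78e-06), while in *siNcor1* the difference was 0.020 (95% interval −0.24 to 0.28, adjusted p = 0.914).

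The ratio of *Pdgfra* to *Pdgfrb* per length was 0.365 and 0.387 in *siNcor1* and 0.262 and 0.229 in libraries labelled *siOct4* at day 3. At day 6 it was 0.670 and 0.648 in *siNcor1* and 0.495 and 0.676 in libraries labelled *siOct4*. The day 6 libraries were above the day 3 libraries in both siRNA groups, and a ratio of a pair of genes within a library does not depend on the scaling of the library. In *siNcor1* the numerator rose, and in libraries labelled *siOct4* the denominator fell.

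**Figure D2:**
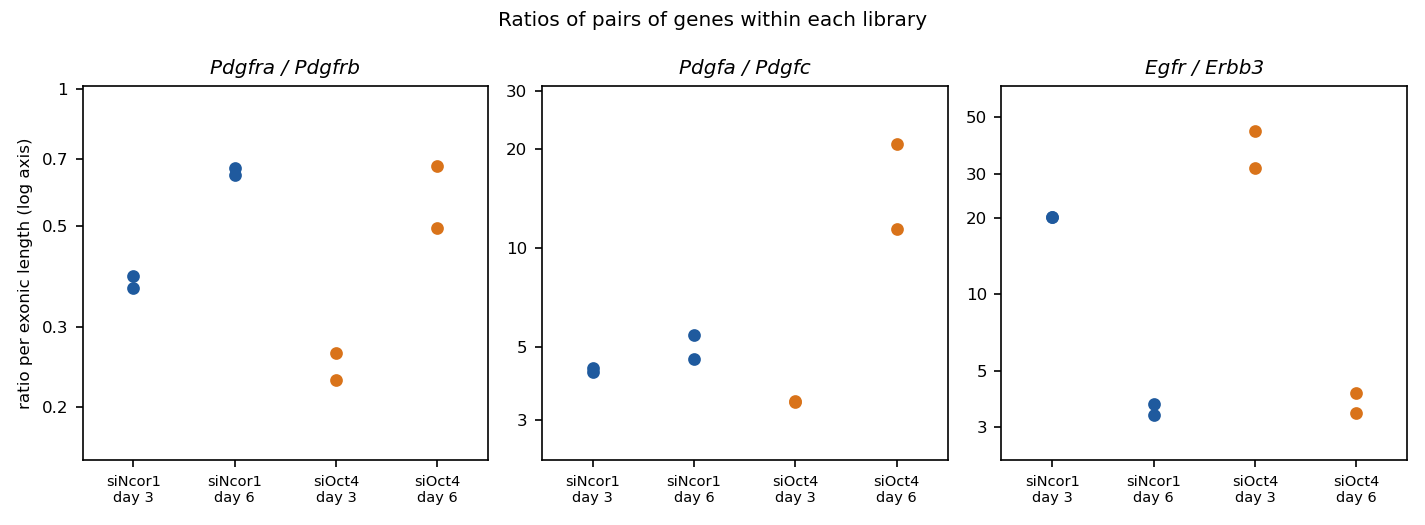
Ratios of pairs of genes per exonic length in each library, on log axes, with 1 point per library, blue for *siNcor1* and orange for *siOct4*. *Pdgfra* to *Pdgfrb* is at 0.229 to 0.387 at day 3 and 0.495 to 0.676 at day 6, *Pdgfa* to *Pdgfc* is above 11 in both libraries labelled *siOct4* of day 6, and *Egfr* to *Erbb3* is 20.2 or more at day 3 and at most 4.09 at day 6.

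*Axl*, on the minus strand of chromosome 7 from 25757273 to 25788705, fell with time in both siRNA groups. Its values were 8.82 and 8.60 log2-cpm in *siNcor1* and 9.02 and 9.12 in libraries labelled *siOct4* at day 3, then 8.01 and 8.05 in *siNcor1* and 7.23 and 7.23 in libraries labelled *siOct4* at day 6. No group overlapped with another. From day 3 to day 6 it fell to 62.5% in *siNcor1* (−0.68, SE 0.12, limma adjusted p = 0.00159) and to 28.1% in libraries labelled *siOct4* (−1.83, SE 0.12, adjusted p = 6.11e-07). The siRNA difference went from 0.36 (SE 0.12, adjusted p = 0.249) at day 3 to −0.80 (SE 0.12, adjusted p = 9.99e-04) at day 6, and its change of −1.16 (SE 0.17, adjusted p = 0.00141) passed under all 18 alternatives.

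*Gas6*, which encodes the ligand of AXL, was called in all 5 comparisons. It was higher in libraries labelled *siOct4* than in *siNcor1* at day 3 by 0.68 (SE 0.12, limma adjusted p = 0.0201) and lower at day 6 by −0.47 (SE 0.12, adjusted p = 0.0121), a change of −1.15 (SE 0.17, adjusted p = 0.00127). It rose by 0.46 (SE 0.12, adjusted p = 0.0104) from day 3 to day 6 in *siNcor1* and fell by 0.69 (SE 0.12, adjusted p = 4.97e-04) in libraries labelled *siOct4*. The call at day 3 was lost without any 1 of the 4 libraries of day 3 (0.0628 to 0.258) or a trend of the variance (0.106), that at day 6 without either *siNcor1* library of day 6 (0.0622 and 0.0935), and the rise in *siNcor1* without the second library of day 3 (0.101) or either of day 6 (0.0656 and 0.0685). *Pros1*, which encodes protein S, a ligand of TYRO3 and MERTK, was lower in libraries labelled *siOct4* at day 6 by −1.03 (SE 0.24, adjusted p = 0.00804; 0.0777 without the second *siNcor1* library of day 6).

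The other receptors of the AXL family are TYRO3 and MERTK. *Tyro3* rose from day 3 to day 6 in libraries labelled *siOct4* by 0.89 (SE 0.12, limma adjusted p = 9.92e-05) and in *siNcor1* by 0.52 (SE 0.12, adjusted p = 0.00659; 0.0504 without the second library of day 3 and 0.0703 without the second of day 6), while *Axl* fell in both. *Mertk* rose in *siNcor1* by 0.94 (SE 0.25, adjusted p = 0.0136) and was lower in libraries labelled *siOct4* than in *siNcor1* at day 6 by −0.88 (SE 0.25, adjusted p = 0.0227). The rise was lost without any 1 of the 4 *siNcor1* libraries (0.0669 to 0.0801) and with quantile normalization (0.0546), and the difference at day 6 without either *siNcor1* library or the second library labelled *siOct4* of day 6 (0.0808 to 0.135).

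*Egfr*, on the plus strand of chromosome 11 from 16752203 to 16918158, encodes the receptor of EGF, TGF-alpha, amphiregulin, epiregulin and HB-EGF. Its values were 6.96 and 6.95 log2-cpm in *siNcor1* and 7.22 and 7.21 in libraries labelled *siOct4* at day 3, then 6.30 and 6.38 in *siNcor1* and 5.90 and 5.96 in libraries labelled *siOct4* at day 6. No group overlapped with another, and the order of the groups was that of *Axl*. It fell to 65.4% in *siNcor1* (−0.61, SE 0.11, limma adjusted p = 0.00153) and to 41.1% in libraries labelled *siOct4* (−1.28, SE 0.11, adjusted p = 3.69e-06). The siRNA difference was 0.26 (SE 0.11, adjusted p = 0.413) at day 3 and −0.42 (SE 0.11, adjusted p = 0.0145) at day 6. The latter was lost without the first (0.0559) or the second (0.133) *siNcor1* library of day 6 and with only the groups compared in the fit (0.0549), within a range of 0.0126 to 0.133 over 19 alternatives. Its change of −0.67 (SE 0.15, adjusted p = 0.0115) was lost without the second *siNcor1* library of day 3 (0.0538) or of day 6 (0.0695).

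*Erbb2*, on the plus strand of chromosome 11 from 98412470 to 98437716, encodes the receptor that binds no ligand and acts as the preferred partner of the others. Its values were 5.45 and 5.35 log2-cpm in *siNcor1* and 5.50 and 5.51 in libraries labelled *siOct4* at day 3, then 5.13 and 5.05 in *siNcor1* and 4.54 and 4.49 in libraries labelled *siOct4* at day 6. The libraries labelled *siOct4* of day 6 were below all others, at 67.0% of *siNcor1* (−0.58, SE 0.12, limma adjusted p = 0.00533), a call that held under all 19 alternatives. In libraries labelled *siOct4* it fell to 50.4% of day 3 (−0.99, SE 0.12, adjusted p = 5.06e-05). In *siNcor1* the difference was −0.31 (SE 0.12, adjusted p = 0.0693), which passed without the first (0.0389) or the second (0.0385) library labelled *siOct4* of day 6 and with only the groups compared (0.0487), within a range of 0.0385 to 0.275. The difference at day 3 was 0.10 (SE 0.12, adjusted p = 0.885). The change of the siRNA difference was −0.68 (SE 0.17, adjusted p = 0.0191), and it was lost without the second *siNcor1* library of day 3 (0.0868), either library labelled *siOct4* of day 3 (0.0539 and 0.0727) or either *siNcor1* library of day 6 (0.0727 and 0.0638).

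*Erbb3*, on the minus strand of chromosome 10 from 128567523 to 128589652, encodes a receptor of neuregulins with little kinase activity of its own, and it rose in both siRNA groups. Its values were 1.77 and 1.76 log2-cpm in *siNcor1* and 1.40 and 0.93 in libraries labelled *siOct4* at day 3, then 3.52 and 3.75 in *siNcor1* and 3.24 and 3.04 in libraries labelled *siOct4* at day 6. The *siNcor1* libraries were above the libraries labelled *siOct4* on both days, and both days were apart in both siRNA groups. It rose 3.65-fold in *siNcor1* (1.87, SE 0.23, limma adjusted p = 1.70e-04) and 3.92-fold in libraries labelled *siOct4* (1.97, SE 0.23, adjusted p = 3.44e-05), and both rises passed under all 18 alternatives that kept the gene. Neither siRNA difference passed, with −0.60 (SE 0.23, adjusted p = 0.328) at day 3 and −0.49 (SE 0.23, adjusted p = 0.125) at day 6. The gene rests on 14 to 158 reads per library.

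The ratio of *Egfr* to *Erbb3* per length was 20.2 in both *siNcor1* libraries and 31.5 and 44.3 in the libraries labelled *siOct4* of day 3. At day 6 it was 3.70 and 3.33 in *siNcor1* and 3.39 and 4.09 in libraries labelled *siOct4*, where the groups overlap. In both siRNA groups *Egfr* fell and *Erbb3* rose from day 3 to day 6, relative to the same libraries.

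Among the EGF family ligands, *Hbegf* fell most between the days. It fell from day 3 to day 6 by 2.29 (SE 0.18, limma adjusted p = 2.50e-06) in libraries labelled *siOct4* and by 0.63 (SE 0.18, adjusted p = 0.0193) in *siNcor1*, where the call was lost without any 1 of the 4 *siNcor1* libraries (0.0548 to 0.134). At day 6 it was lower in libraries labelled *siOct4* than in *siNcor1* by −1.02 (SE 0.18, adjusted p = 0.00222). *Nrg1*, a neuregulin that binds ERBB3, was lower in libraries labelled *siOct4* at day 6 by −1.17 (SE 0.22, adjusted p = 0.00271). The difference of *Erbb3* there was −0.49 and did not pass. From day 3 to day 6 in libraries labelled *siOct4*, *Nrg1* fell by 1.66 (SE 0.22, adjusted p = 7.51e-05) while *Erbb3* rose. In *siNcor1*, where *Erbb3* rose as well, the mean of *Nrg1* went from 4.96 to 4.43 log2-cpm, a difference that did not pass the threshold. *Areg* rose by 1.61 (SE 0.43, adjusted p = 0.0133) in *siNcor1*, which was lost without the second library of day 3 (0.105) or of day 6 (0.131). In libraries labelled *siOct4* it rose by 1.29 (SE 0.43, adjusted p = 0.0249), which was lost without either library of day 3 (0.0636 and 0.0834) or the second of day 6 (0.173), with quantile normalization (0.131) and with only the groups compared (0.0514). *Ereg* fell by 1.03 (SE 0.28, adjusted p = 0.00958) in libraries labelled *siOct4*, lost without the second library of day 3 (0.0590) or the first of day 6 (0.0668), and *Tgfa* passed in no comparison. *Btc* had 4 to 25 reads and the paralog *Erbb4* 2 to 18 reads per library, and neither passed the filter.

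*Met*, on the plus strand of chromosome 6 from 17463800 to 17573980, encodes the receptor of hepatocyte growth factor. Its values were 6.60 and 6.49 log2-cpm in *siNcor1* and 6.59 and 6.53 in libraries labelled *siOct4* at day 3, then 5.76 and 5.98 in *siNcor1* and 5.16 and 5.51 in libraries labelled *siOct4* at day 6. All 4 libraries of day 6 were below the 4 of day 3, and the siRNA groups overlapped at day 3. It fell to 62.5% in *siNcor1* (−0.68, SE 0.14, limma adjusted p = 0.00356) and to 42.8% in libraries labelled *siOct4* (−1.22, SE 0.14, adjusted p = 2.99e-05). The siRNA difference was 0.0091 (95% interval −0.30 to 0.32, adjusted p = 0.995) at day 3 and −0.54 (SE 0.14, adjusted p = 0.0144) at day 6. The latter was lost without the second *siNcor1* library of day 6 (0.149), without the first library labelled *siOct4* of day 6 (0.0619), without a trend of the variance (0.0508) and with only the groups compared (0.0505), within a range of 0.00205 to 0.149. Its change of −0.55 (SE 0.20, adjusted p = 0.0717) passed only without the second library labelled *siOct4* of day 6 (0.0101, with 0.0101 to 0.261 over 18 alternatives).

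*Hgf*, which encodes the ligand of MET, rose by 0.70 (SE 0.22, limma adjusted p = 0.0301) from day 3 to day 6 in *siNcor1*, a call lost without the second library of day 3 (0.213) or of day 6 (0.234) and with quantile normalization (0.0838). *Spint1* and *Spint2*, membrane inhibitors of the proteases that activate HGF and known from epithelia, rose by 2.58 (SE 0.24, adjusted p = 3.29e-05) and 2.04 (SE 0.23, adjusted p = 8.46e-05) in *siNcor1* and by 3.73 (SE 0.24, adjusted p = 5.47e-07) and 3.90 (SE 0.23, adjusted p = 2.88e-07) in libraries labelled *siOct4*, while *Met* fell in both. At day 3 they were lower in libraries labelled *siOct4* by −1.84 (SE 0.24, adjusted p = 0.00591) and −1.32 (SE 0.23, adjusted p = 0.0201). For *Spint1* this was lost without either *siNcor1* library of day 3 (0.0675 and 0.0827), and for *Spint2* without any 1 of the 4 libraries of day 3 (0.0875 to 0.229), without a trend (0.107) and with voom on the recovered reads (0.112). *Mst1r*, the paralog of *Met*, passed in no comparison.

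*Kit*, on the plus strand of chromosome 5 from 75574916 to 75656722, encodes the receptor of stem cell factor and was the lowest of the 10 genes, with 15 to 57 reads per library. Its values were 1.08 and 1.68 log2-cpm in *siNcor1* and 0.92 and 1.02 in libraries labelled *siOct4* at day 3, then 1.67 and 1.66 in *siNcor1* and 2.19 and 2.31 in libraries labelled *siOct4* at day 6. The libraries labelled *siOct4* were the lowest at day 3 and the highest at day 6. There *Kit* rose 2.43-fold (1.28, SE 0.28, limma adjusted p = 0.00227), under all 18 alternatives that kept it. In *siNcor1*, where the days overlapped, the difference was 0.29 (SE 0.28, adjusted p = 0.455). The siRNA difference was −0.41 (SE 0.28, adjusted p = 0.720) at day 3 and 0.59 (SE 0.28, adjusted p = 0.130) at day 6, and its change of 0.99 (SE 0.39, adjusted p = 0.0936) did not pass. *Kitl*, encoding stem cell factor, was lower in libraries labelled *siOct4* at day 6 by −0.66 (SE 0.17, adjusted p = 0.0144), which was lost without the second *siNcor1* (0.119) or the first library labelled *siOct4* (0.0675) of day 6. Of the paralogs, *Csf1r* fell in libraries labelled *siOct4* by 1.58 (SE 0.40, adjusted p = 0.00617; 0.0696 without the second library of day 3), and *Flt3* had 0 to 8 reads per library and was not tested.

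**Figure D3:**
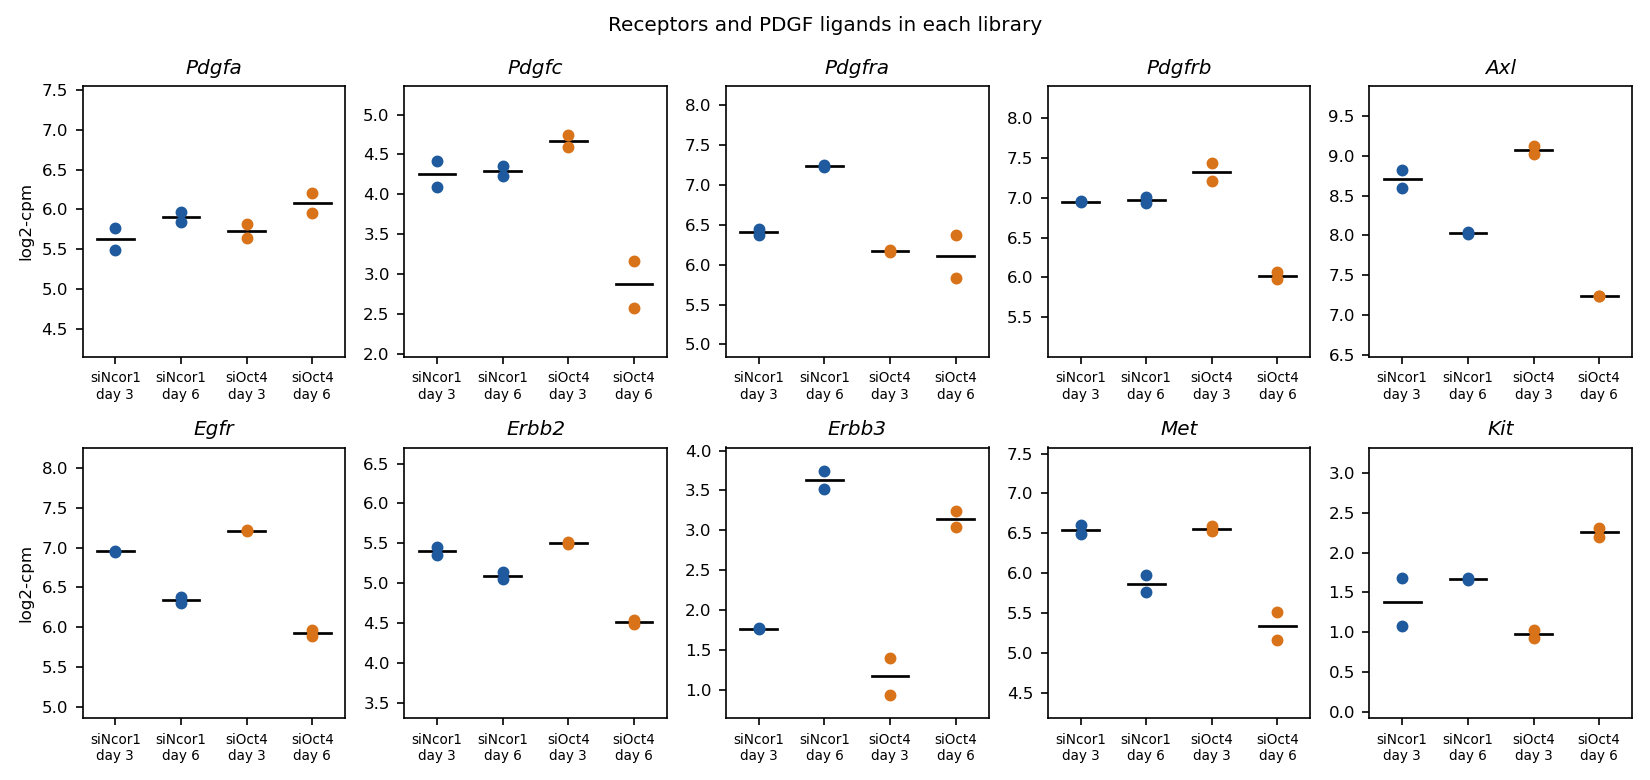
Values of the 10 genes in log2-cpm, 1 panel per gene, with 1 point per library and a line at the mean of 2, blue for *siNcor1* and orange for *siOct4*. All vertical axes span the same number of log2 units. *Pdgfc*, *Pdgfrb*, *Axl*, *Egfr*, *Erbb2* and *Met* are lowest in libraries labelled *siOct4* at day 6, *Erbb3* is higher at day 6 in both siRNA groups, and *Pdgfra* is highest in *siNcor1* at day 6.

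Taken by comparison, at day 3 none of the 10 genes passed the threshold with limma, where 0.375% of all tested genes were higher and 0.692% lower in libraries labelled *siOct4*. At an unadjusted p under 0.05 there were 4, against 1460 of all 13866 tested genes (10.5%), of which *Pdgfrb*, *Axl* and *Egfr* were higher and *Erbb3* was lower, and voom on the recovered reads called 0. At day 6, 7 of the 10 were lower in libraries labelled *siOct4* and 0 were higher, against 18.6% lower and 12.1% higher of all tested genes. The 7 are *Pdgfc*, *Pdgfra*, *Pdgfrb*, *Axl*, *Egfr*, *Erbb2* and *Met*, and the median of the 10 was −0.56, against −0.025 over all tested genes. Leaving out 1 library gave 5 to 7.

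From day 3 to day 6 in *siNcor1*, *Pdgfra* and *Erbb3* rose and *Axl*, *Egfr* and *Met* fell, against 13.8% of all tested genes that rose and 20.9% that fell. In the libraries labelled *siOct4*, *Erbb3* and *Kit* rose and *Pdgfc*, *Pdgfrb*, *Axl*, *Egfr*, *Erbb2* and *Met* fell, against 22.2% and 30.5%. The median of the 10 was 0.029 in *siNcor1* and −1.11 in libraries labelled *siOct4*, against −0.068 and −0.079 over all tested genes. In libraries labelled *siOct4* the share of higher genes among those called was 42.1%, and 52.5% with library totals counted without *Gm26917*, which moved the median gene from −0.079 to 0.055. Under each of the scalings run the 6 falls and 2 rises kept their direction. The change of the siRNA difference was negative and called for 6 genes (*Pdgfc*, *Pdgfra*, *Pdgfrb*, *Axl*, *Egfr* and *Erbb2*) and positive and called for 0, against 12.9% and 7.77% of all tested genes. This count was 3 without the second *siNcor1* library of day 3 and 3 without the second *siNcor1* library of day 6.

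**Figure D4:**
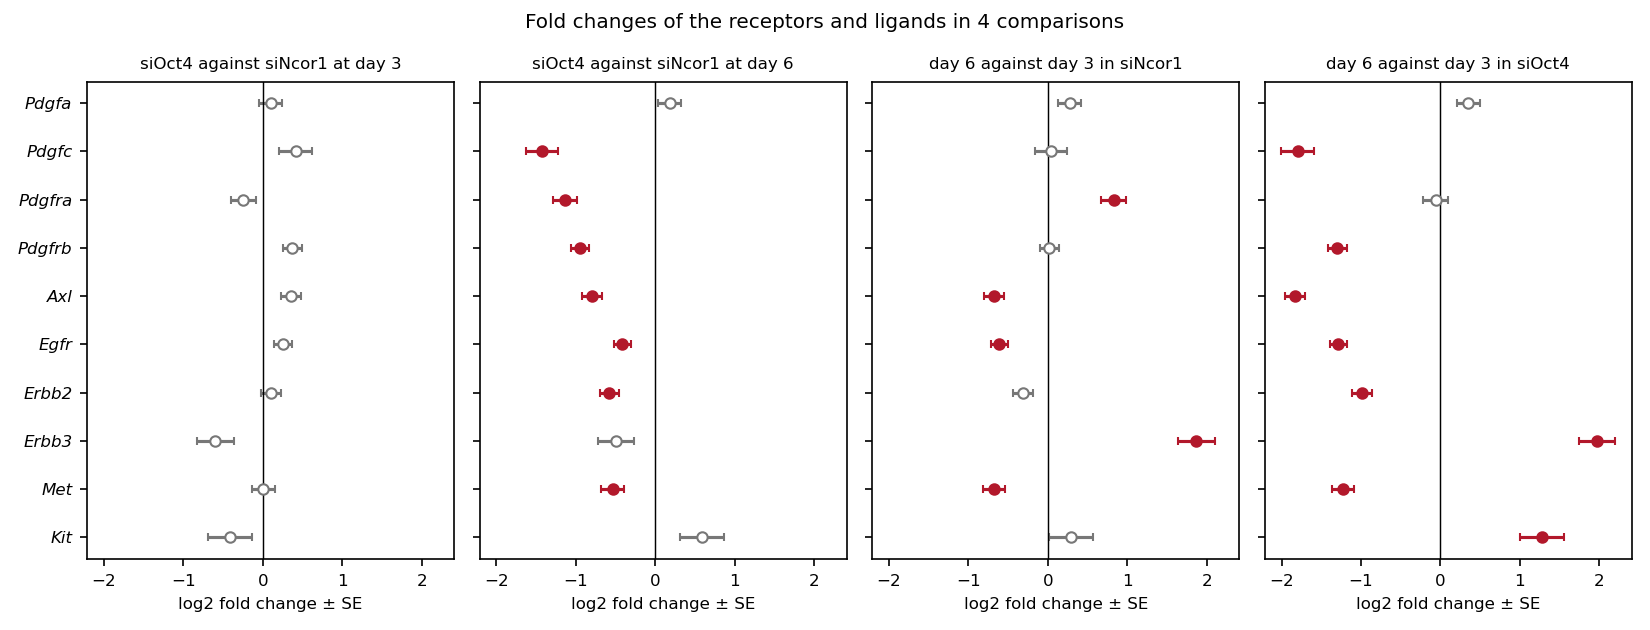
Log2 fold changes of the 10 genes in 4 comparisons, with bars of 1 SE from the fit of 8 libraries. Filled red points have an adjusted p under 0.05 and open grey points do not. None of the points at day 3 is filled, 7 at day 6 are filled and lie below 0, and the direction of *Pdgfra* between the days in libraries labelled *siOct4* turns with the scaling of the libraries.

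Markers of fibroblasts and of epithelial cells were read beside these values. The 8 fibroblast markers, all in the table (*Col1a1*, *Col1a2*, *Col3a1*, *Thy1*, *Dcn*, *Lum*, *Fbln2* and *Postn*), summed to 6625 to 6643 CPM in *siNcor1* and 9391 to 11047 in libraries labelled *siOct4* at day 3, and to 4496 to 4891 and 2535 to 2680 at day 6. The sum stands in the order of *Axl* and *Egfr*, but *Col1a1* made up 56.0% and 60.0% of it at day 3, and 3 of the 8 markers (*Col1a1*, *Col1a2* and *Fbln2*) have that order. *Col3a1*, *Thy1*, *Dcn* and *Lum* were highest in *siNcor1* at day 6. From day 3 to day 6 the mean of *Dcn* went from 27.7 to 158 CPM in *siNcor1* and from 35.5 to 112 in libraries labelled *siOct4*, and that of *Lum* from 12.5 to 79.0 and from 13.8 to 54.4. In all, 5 of the 8 were higher at day 6 in *siNcor1* and 2 of the 8 in libraries labelled *siOct4*. The 8 epithelial markers (*Cdh1*, *Epcam*, *Krt8*, *Krt18*, *Krt19*, *Cldn4*, *Esrp1* and *Grhl2*) summed to 89.9 to 91.9 and 36.8 to 45.0 CPM at day 3, and to 702 to 737 and 312 to 348 at day 6. This is the order of *Erbb3* and of 5 of the 8 markers, the others being *Krt18*, *Krt19* and *Esrp1*. In bulk RNA, fewer cells of a type and less RNA per cell cannot be told apart, and the part of cell composition in the results was not tested.

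Markers of other cell types known for single receptors were listed as well. The 5 pericyte markers, beside *Pdgfrb*, summed to 59.2 to 80.1 and 77.9 to 93.4 CPM at day 3 and to 113 to 114 and 55.3 to 75.3 at day 6, mostly from *Notch3* and *Cspg4*, and their part in the result was not tested. Of the Schwann and neural crest markers, beside *Erbb3*, 4 of 5 were in the table and summed to 2.85 to 5.22 CPM over all libraries, lower at day 6 than at day 3 in both siRNA groups. Of the 5 mast cell markers, beside *Kit*, *Cpa3*, *Fcer1a*, *Tpsb2* and *Mcpt4* were not in the table. The remaining marker, *Hdc*, had 0 to 2 reads in 6 libraries. It had 3 and 7 in libraries labelled *siOct4* at day 6, where *Kit* is highest, and its part in the result was not tested. Of the 5 melanocyte markers, *Tyr*, *Dct* and *Mlana* were not in the table. *Mitf* and *Pmel* were, at 7.21 to 19.7 CPM together and higher in *siNcor1* than in libraries labelled *siOct4* at day 6. Of the 4 germ cell markers, *Dazl* was not in the table. *Ddx4*, *Nanos3* and *Dppa3* were, at 0.380 to 1.02 CPM together at day 3, 7.02 to 8.24 in *siNcor1* and 1.06 to 2.21 in libraries labelled *siOct4* at day 6. The rise of this sum came from *Dppa3*, while *Ddx4* had 1 to 15 reads and *Nanos3* 0 to 4 reads per library. *Dppa3* had 0 reads at day 3, 78 and 91 in *siNcor1* and 7 and 22 in libraries labelled *siOct4* at day 6. Which cells made the *Dppa3* RNA, and its part in the result, were not tested. The macrophage markers, beside *Axl*, summed to 6.26 to 12.8 CPM, with *Adgre1* at 0 to 6 reads, and the endothelial markers to 0.594 to 2.28 CPM, with *Emcn* at 0 to 2 reads.

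The other genes of these pathways were listed in 3 groups, of which 85 genes were tested. They are ligands and extracellular regulators (23 tested), adaptors and feedback genes inside the cell (28 tested) and the other receptor kinases (34 tested). At day 3, 2 of the 85 were higher in libraries labelled *siOct4* (*Gas6* and *Flt4*, a receptor of lymphatic endothelium, by 1.24, SE 0.24, limma adjusted p = 0.0296) and 3 were lower, against 0.375% and 0.692% of all tested genes. The 5 calls became 0 without either *siNcor1* library of day 3, 1 without either library labelled *siOct4* of day 3, and 9 without either library labelled *siOct4* of day 6. *Flt4* was lost without any 1 of the 4 libraries of day 3 (0.129 to 0.269) or the second *siNcor1* library of day 6 (0.0505), without a trend (0.0580) and without the filter (0.0509). Of the adaptors and feedback genes 0 were called, 6 at an unadjusted p under 0.05 and 0 by voom.

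At day 6, 45 of the 85 were lower in libraries labelled *siOct4* and 4 were higher, with a median of −0.52, against 18.6% lower, 12.1% higher and a median of −0.025 over all tested genes. The counts of each list are read against the same shares. Of the 28 adaptors and feedback genes 0 were higher and 16 were lower. Without the second *siNcor1* library of day 6 the 49 calls became 18. *Dusp5*, a phosphatase that restrains ERK, was lower by −1.14 (SE 0.16, limma adjusted p = 7.50e-04), and *Gab2*, a docking protein of receptor complexes, by −0.82 (SE 0.17, adjusted p = 0.00474). The call for *Gab2* was lost without the second *siNcor1* library of day 6 (0.0528). Of the ligands and regulators 12 were lower and 0 higher, the lowest being *Nrg1* and *Pdgfrl*, a PDGF receptor-like protein, at −1.05 (SE 0.35, adjusted p = 0.0406). *Pdgfrl* was lost without either *siNcor1* library of day 3 (0.0619 and 0.0621), either *siNcor1* library of day 6 (0.178 and 0.126) or the first library labelled *siOct4* of day 6 (0.153), without the filter (0.0537), with only the groups compared (0.0863) and with voom (0.0530). Of the other receptor kinases 17 were lower, led by *Styk1* (−1.29, SE 0.30, adjusted p = 0.00861; 0.0802 without the second *siNcor1* library of day 6) and the ephrin receptor *Ephb3* (−1.28, SE 0.17, adjusted p = 4.99e-04), and 4 were higher, led by *Epha8* and *Ntrk3*, receptors known from neurons. *Epha8* was higher by 2.20 (SE 0.54, adjusted p = 0.0106; 0.118 without the second *siNcor1* and 0.0549 without the first library labelled *siOct4* of day 6) and *Ntrk3* by 2.14 (SE 0.45, adjusted p = 0.00505; 0.0594 without the second *siNcor1* library).

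From day 3 to day 6, 25 of the 85 rose and 21 fell in *siNcor1*, and 15 rose and 45 fell in libraries labelled *siOct4*, with medians of 0.11 and −0.52. Over all tested genes 13.8% rose and 20.9% fell in *siNcor1*, and 22.2% and 30.5% in libraries labelled *siOct4*. The 46 calls in *siNcor1* became 25 without the second library of day 3 and 27 without the first of day 6. *Grb7*, an adaptor whose gene lies close to *Erbb2*, had 1 and 0 reads in *siNcor1* and 0 and 0 in libraries labelled *siOct4* at day 3, and 99 and 101 and then 43 and 36 reads at day 6. In CPM, the sum over the libraries was 278 times that of day 3 in *siNcor1* (exact 95% counting interval 49.4 to 11048, counting error only, resting on 1 read at day 3). Against 3 reads per library at day 3, it was at least 44.06-fold higher in *siNcor1* and at least 8.05-fold higher in libraries labelled *siOct4*. It lies above the median of its list on either scale. Of the 28 adaptors and feedback genes, 10 rose and 8 fell in *siNcor1*, and 4 rose and 16 fell in libraries labelled *siOct4*. *Dusp6*, a phosphatase that ERK signalling induces, rose by 1.20 (SE 0.13, limma adjusted p = 7.86e-05) in *siNcor1*. *Etv4*, a factor induced by the same pathway, rose by 1.28 (SE 0.14, adjusted p = 1.78e-05) in libraries labelled *siOct4*. The adaptors that fell most were *Sos2* (−0.79, SE 0.16, adjusted p = 0.00311) and *Grb10* (−0.68, SE 0.13, adjusted p = 0.00218) in *siNcor1*, and *Gab2* (−1.48, SE 0.17, adjusted p = 3.00e-05) and *Pik3r1* (−1.20, SE 0.14, adjusted p = 2.79e-05) in libraries labelled *siOct4*.

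Among the other receptor kinases between the days, *Ntrk2*, the receptor of BDNF, rose by 2.32 (SE 0.26, limma adjusted p = 8.38e-05) in *siNcor1*, and *Fgfr3* fell by 1.65 (SE 0.22, adjusted p = 2.98e-04). *Ntrk3* fell there by 1.90 (SE 0.45, adjusted p = 0.00717; 0.0794 without the second library of day 3 and 0.0661 without the second of day 6) and rose in libraries labelled *siOct4* by 1.78 (SE 0.45, adjusted p = 0.00585; 0.0637 without the second library of day 3). In libraries labelled *siOct4*, *Flt1* fell by 2.58 (SE 0.24, adjusted p = 6.40e-06) and *Epha3* by 2.32 (SE 0.21, adjusted p = 6.05e-06). *Epha8* had 3 reads in both libraries labelled *siOct4* of day 3 and 36 and 32 at day 6, which is a ratio of 12.1 in CPM (exact 95% counting interval 5.28 to 34.1, counting error only). The sheddase *Adam10*, which releases several EGF family ligands, fell by 0.54 (SE 0.14, adjusted p = 0.0104) in *siNcor1*. This call was lost with quantile normalization (adjusted p = 0.0539). It was also lost without the first library of day 3 (log2 fold change −0.42) or of day 6 (−0.45). In libraries labelled *siOct4* the mean of *Adam10* went from 7.14 to 6.15 log2-cpm, and *Pdgfd* fell by 1.88 (SE 0.24, adjusted p = 6.49e-05).

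**Figure D5:**
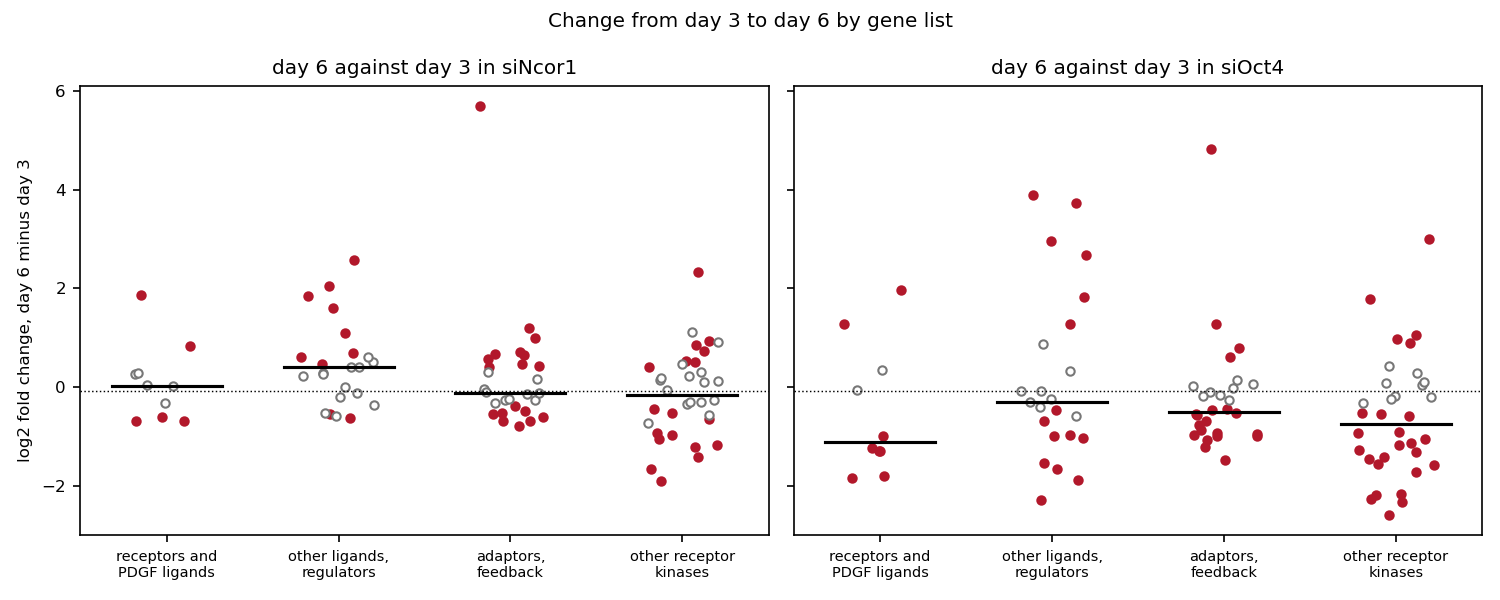
Log2 fold changes from day 3 to day 6 in *siNcor1* (left) and *siOct4* (right) for the 10 genes and the 3 lists of other genes of these pathways, 1 point per gene. Filled red points have an adjusted p under 0.05, thick lines are medians of each list, and the dotted line is the median of all tested genes, which the scaling without *Gm26917* moves from −0.079 to 0.055 in libraries labelled *siOct4*. The median of the 10 genes is 0.029 on the left and −1.11 on the right, and the highest point is *Grb7*, for which reads are given in the text.

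The genes whose pattern over the 8 libraries was most like each of the 10 were found by Pearson's r of log2-cpm among 12559 genes, as a description. The libraries of a group share treatment and day, so high values are common. *Axl* was followed most closely by *Adamtsl1* (0.999) and *Epb41l3* (0.998), *Egfr* by *Lrp2* (0.999) and *Prss23* (0.998), and *Erbb2* by *Marveld1* (0.997) and *Stim2* (0.996). *Met* was followed by *Mob1b* and *Tab2* (both 0.997), *Pdgfc* by *Nagk* (0.998) and *Impact* (0.996), and *Pdgfrb* by *Extl3* (0.995) and *Slc12a4* (0.994). The epithelial factor *Grhl2* (0.994) and the lectin gene *Clec2f* (0.994) were closest to *Erbb3*, *Bri3* (0.993) and *Scand1* (0.988) to *Pdgfa*, and *Esco2* (0.989) and *Zfyve19* (0.987) to *Kit*. *Pdgfra* had the lowest values of the 10, with *Cped1* (0.971) and *Vstm4* (0.967). Between the 10 genes themselves, *Axl* and *Egfr* had an r of 0.988 and *Axl* and *Kit* one of −0.957, while *Pdgfra* and *Axl* had one of −0.056.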

How the data were processed

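RNA-seq was measured in 8 libraries of MEFs in reprogramming, 2 replicates in each of 4 groups taken from the sample labels. The authors aligned reads to mm10 with STAR 2.5.2b and deposited log2-cpm values, which their notes tie to edgeR 3.20.9. The counter, annotation and strand setting are not given in the sources used here. Subtracting a constant from the linear values gave whole reads (within 0.1) for 100% of values. Depth was 7735742 to 16445192 reads on genes, and 3 reads stand for 0.174 to 0.380 CPM, with counting error only. Libraries of 1 group were not copies of each other, with a chi-square of 8.44 to 18.7 for each degree of freedom.

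Coordinates and exonic lengths come from GENCODE M21 (18969 of 18990 identifiers matched). Genes that averaged 1 CPM or more were tested with limma 3.58.1 (lmFit, then eBayes with the prior variance following mean expression) in R 4.3.3, tested on simulated data first. Plots used matplotlib 3.10.9. The 10 genes, the lists and the marker lists were chosen with earlier results of these data known. From each list and comparison the 2 genes that rose most and the 2 that fell most among those called are named, with a fixed set of ligands and paralogs. The alternatives were another variance model, 3 scalings, no filter or 10 CPM, pseudocounts of 0.1 and 1 CPM, voom on recovered reads, the replicate number as a block, only the groups compared, and each library left out. The scaling without *Gm26917* used plain read totals in place of the effective sizes.

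The replicate numbers come from the labels, and deviations of same-numbered libraries correlated at −0.040 to 0.281, so the numbers were not taken to pair the libraries.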

Additional observations from a re-analysis of the deposited data

Results flagged for a closer look

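The difference between the libraries labelled *siOct4* and the *siNcor1* libraries changed from day 3 to day 6 for 6 of the 10 genes, by the test of that change in the limma fit. Of the 85 other genes of these pathways, the change was negative and called for 35 and positive and called for 7, against 12.9% and 7.77% of all tested genes. The change was −1.84 for *Pdgfc*, −1.32 for *Pdgfrb*, −1.16 for *Axl*, −0.89 for *Pdgfra*, −0.68 for *Erbb2* and −0.67 for *Egfr* on the log2 scale. Among the other ligands it was −1.66 for *Hbegf*, −1.55 for *Ereg*, −1.28 for *Pdgfd*, −1.15 for *Gas6*, −1.13 for *Nrg1* and 1.58 for *Pdgfb*, and 1.86 for the protease inhibitor *Spint2*. For the adaptor *Gab2* and the feedback gene *Ier3* it was −1.22 and −1.02. For other receptor kinases it was −1.89 for *Csf1r*, −1.77 for *Epha3*, −1.12 for *Mertk*, 1.06 for *Fgfr3* and 3.68 for *Ntrk3*. Groups of 2 libraries are too small for a test of single libraries that stand apart. Of these calls, some rest on single libraries. Without the second *siNcor1* library of day 3, and likewise without the second of day 6, those of *Pdgfra*, *Egfr*, *Erbb2*, *Csf1r*, *Ereg*, *Fgfr3*, *Mertk*, *Nrg1*, *Pdgfb* and *Pdgfd* were lost (limma adjusted p 0.0538 to 0.161 and 0.0638 to 0.198). Without the first *siNcor1* library of day 3, those of *Pdgfra*, *Ereg*, *Fgfr3*, *Mertk*, *Nrg1* and *Pdgfb* were lost (0.0571 to 0.142), and without the first of day 6 those of *Erbb2*, *Csf1r*, *Fgfr3* and *Mertk* (0.0718 to 0.103). Without the first library labelled *siOct4* of day 3, those of *Erbb2*, *Fgfr3*, *Mertk* and *Nrg1* were lost (0.0539 to 0.135), and without the second those of *Pdgfra*, *Erbb2*, *Csf1r*, *Ereg*, *Fgfr3*, *Mertk*, *Pdgfb* and *Pdgfd* (0.0605 to 0.156). Without the first library labelled *siOct4* of day 6 that of *Pdgfb* was lost (0.101), and without the second those of *Fgfr3* and *Mertk* (0.0687 and 0.0833). The calls of *Pdgfc*, *Pdgfrb*, *Axl*, *Gas6*, *Hbegf*, *Spint2*, *Gab2*, *Ier3*, *Epha3* and *Ntrk3* held without each of the 8 libraries. Other alternatives also ended calls. That of *Pdgfb* was lost without a trend of the variance, with quantile normalization, without the filter, with a pseudocount of 1 CPM and with voom (0.0526 to 0.0730), and that of *Mertk* with centring, with totals without *Gm26917* and without the filter (0.0505 to 0.0707). Those of *Pdgfra*, *Ereg* and *Nrg1* were lost without a trend (0.0646 to 0.0731), those of *Csf1r* and *Fgfr3* without the filter (0.0505 and 0.0516), and that of *Fgfr3* also with a pseudocount of 1 CPM (0.0515).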

How the results depend on the processing

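Over the alternatives other than leaving out a library, 1199 of 1244 values of named genes kept their direction and side of the threshold, 34 lost the call, 6 gained it and 5 turned sign. With each library left out, 817 of 952 kept both, 117 lost the call, 5 gained it and 13 turned sign. A group left with 1 library is assumed to vary like the others. Calls over all tested genes in these fits are not given, so a loss of calls among the listed genes cannot be told apart from a general loss. Of the 85 pathway genes, 1 was called at day 3 without a trend of the variance, and the cause was not tested. Without 1 library the calls were 0 to 9 at day 3, 18 to 49 at day 6, 25 to 57 from day 3 to day 6 in *siNcor1*, and 19 to 49 for the change of the siRNA difference, where 3 to 7 of the 10 genes were called.

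Signs turned for *Met* at day 3 with totals without *Gm26917* (−0.033), for *Pdgfra* between the days in libraries labelled *siOct4* with centring (0.0092), quantile normalization (0.19) and totals without *Gm26917* (0.074), and for the change of *Erbb3* with a pseudocount of 1 CPM (−0.0054). Without 1 library, the values were −0.042 to 0.24 for *Pdgfa* and −0.043 to 0.061 for *Met* at day 3. Between the days in *siNcor1* they were −0.12 to 0.20 for *Pdgfc*, −0.019 to 0.058 for *Pdgfrb* and −0.015 to 0.59 for *Kit*, and in libraries labelled *siOct4* −0.34 to 0.21 for *Pdgfra*. For the change of the siRNA difference they were −0.064 to 0.22 for *Pdgfa* and −0.13 to 0.34 for *Erbb3*. None of these was called in the fit reported.

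With the replicate block, 222, 4698, 5218, 7570 and 3395 of all genes were called in the order day 3, day 6, *siNcor1*, *siOct4* and change of difference, against 148, 4251, 4819, 7312 and 2867, and of the 10 genes only *Pdgfa* in libraries labelled *siOct4* gained a call (adjusted p = 0.0225). At day 3, 43 genes were called without a trend, and 29.0% to 55.1% of calls were higher under the scalings and voom, against 35.1%. The change of difference could not be fitted with only the groups compared, and a minimum of 10 CPM left out *Erbb3* and *Kit*. With 2 libraries a group and 14 to 158 reads, differences of these genes are the least certain.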
